A study of Citrus maxima and Citrus sinensis with 4 samples.

Results

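A single 24 nt small RNA sequence, listed at 10 of the 699 loci of a *Citrus* leaf miRNA table, was described here in 4 small RNA libraries. Its members are all loci whose mature sequence is identical to that of the locus scaffold_10_1542597. The sequence carried no label of homology to a known miRNA. It was chosen by its read counts, which were many times higher in *C. grandis* than in *C. sinensis*, and by its number of loci, so both are given as a description without a test. Leaves of sour pummelo (*C. grandis*, given in the labels under the organism name Citrus maxima) and of the orange 'Xuegan' (*C. sinensis*) were compared after 15 weeks of nutrient solution holding boric acid at 10 μM (control) or at 400 μM (B-toxic). The leaves were mature and taken from the same relative height of greenhouse seedlings in sand culture, and no other treatment separated the groups. RNA of 5 replicates was mixed before each library was made, which left 1 library for each of the 4 conditions, and a test on the reads of a pair of libraries compared those libraries and not the conditions. Loci had been predicted on the genome of another species, *C. clementina*, so a locus label does not show that the same locus is present in the genome of either species.

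Plant miRNAs are released from the stem of a hairpin precursor, mostly by DCL1, and are commonly 21 nt long with a 5′ U. Small RNAs of 24 nt are mostly made by DCL3 from double-stranded RNA, associate with Argonaute proteins of the AGO4 group, which favour a 5′ A, and direct DNA methylation at transposons and other repeats. Some 24 nt RNAs are also cut from long, nearly perfect hairpins formed by inverted repeats. In *Citrus* leaves, excess B injures older leaves first, because B moves with the transpiration stream.

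The mature sequence is printed with its seed, bases 2 to 8 from the 5′ end, in capitals, because these bases were looked for in the other sequences.
10-locus sequence: aCGGCUGGaugcaacuguggcacg
It started with A, as did 52.8% of the 354 loci with a 24 nt mature sequence, and its GC content was 62.5%. Of the 579 distinct mature sequences in the table, it was the only 1 with this seed at bases 2 to 8. Yet 10 others shared a run of at least 12 nt with it or its reverse complement. The 10 loci carried 7 different scaffold labels, against at most 5 for any other sequence, and the next most repeated sequence was listed at 6 loci.

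All 10 loci had the same 24 nt but different neighbours. The stretch around the mature sequence is shown for each locus because the read counts followed the bases next to it, and the 2 bases before and up to 5 bases after the mature sequence are in capitals.
scaffold_10_1542597: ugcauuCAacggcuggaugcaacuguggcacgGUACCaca
scaffold_1_21336: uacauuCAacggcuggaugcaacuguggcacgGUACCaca
scaffold_3_614669: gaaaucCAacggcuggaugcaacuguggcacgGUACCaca
scaffold_6_1117070: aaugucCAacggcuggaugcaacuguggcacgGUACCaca
scaffold_5_893299: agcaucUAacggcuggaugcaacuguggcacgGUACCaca
scaffold_9_1423930: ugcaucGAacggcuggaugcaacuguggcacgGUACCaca
scaffold_6_995174: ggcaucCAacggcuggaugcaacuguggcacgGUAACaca
scaffold_3_349748: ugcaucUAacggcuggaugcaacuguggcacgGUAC
scaffold_3_488537: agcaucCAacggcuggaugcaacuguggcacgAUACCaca
scaffold_2_252949: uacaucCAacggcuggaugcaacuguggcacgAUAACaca
The loci are listed from the most to the fewest reads. The deposited precursor of scaffold_3_349748 ends 4 bases after the mature sequence.

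Counts were the same at 4 loci and lower by unequal amounts at the rest, giving 7 different sets of counts. At scaffold_10_1542597, scaffold_1_21336, scaffold_3_614669 and scaffold_6_1117070, the control library of *C. grandis* held 2419 reads of the mature sequence and its B-toxic library 2352. The libraries of *C. sinensis* held 102 (control) and 114 (B-toxic). These 4 loci shared CA before and GUACC after the mature sequence and had the highest count in every library. The locus scaffold_5_893299, with UA before it, had 2392, 2336, 99 and 110 reads in the same order of libraries. With GA before it, scaffold_9_1423930 had 2392, 2336, 99 and 107 reads. Only the base at the second place before the mature sequence differed among these 6 loci within the capitals, and the counts of these 2 were lower than those of the 4 top loci by at most 27 reads in any library.

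The loci whose following bases differed from GUACC had fewer reads. The locus scaffold_6_995174, followed by GUAAC, had 2339, 2287, 85 and 94 reads in the same order of libraries. At scaffold_3_349748, followed by GUAC and the end of the precursor, the counts were 2100, 2197, 85 and 96. The 2 loci followed by A in place of G had the fewest reads, 1849, 1968, 76 and 74 at scaffold_3_488537 and 1847, 1967, 72 and 72 at scaffold_2_252949. Summed over the libraries, the 8 loci followed by G had 4478 to 4987 reads and the 2 followed by A had 3958 to 3967. These groups were formed with the counts known, and the flanks of other sequences were not examined. Among the 69 sequences listed at more than 1 locus, 28 others also had unequal totals over their loci. The gap between the highest and the lowest locus in *C. grandis* was 572 reads (23.6% of the highest) in the control library and 385 (16.4%) in the B-toxic library, and 30 (29.4%) and 42 (36.8%) in *C. sinensis*. How reads were assigned to loci with the same 24 nt was not stated in the methods or labels and was not tested. Counts were identical at 4 loci in every library, so the 10 loci are not independent measurements.

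**Figure D1:**
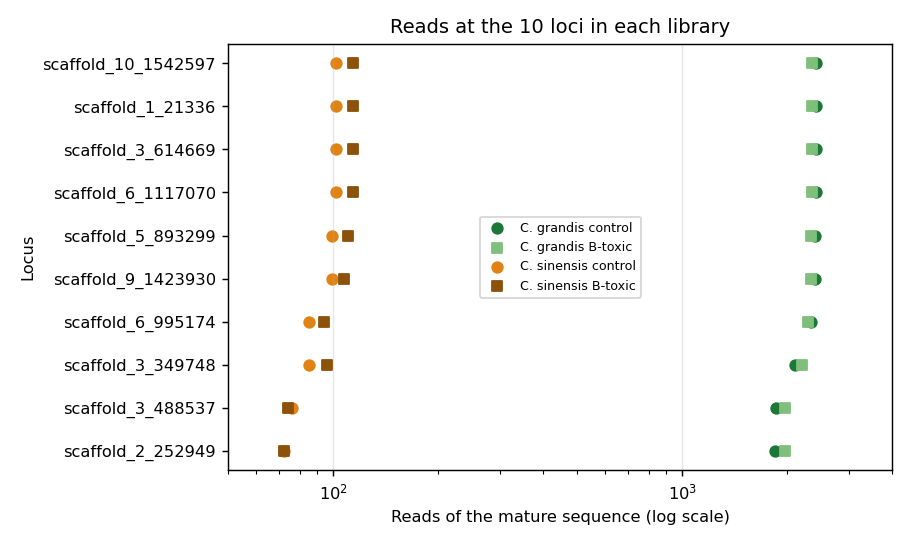
Reads of the mature sequence (horizontal axis, log scale) at each of the 10 loci (vertical axis) in the 4 libraries, 1 point per library with no error bar. The *C. grandis* points lie between 1847 and 2419 reads and the *C. sinensis* points between 72 and 114, and within each species the points of the 2 treatments lie close together.

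Scaled to all mature reads of a library (*C. grandis* 373890 control and 325441 B-toxic, *C. sinensis* 346600 control and 243277 B-toxic), the level at scaffold_10_1542597 was highest in B-toxic *C. grandis* with 7227 RPM (reads per 1000000 mature reads), followed by control *C. grandis* with 6470 RPM. B-toxic *C. sinensis* had 469 RPM and control *C. sinensis* 294 RPM. At the locus with the fewest reads, scaffold_2_252949, the levels were 6044, 4940, 296 and 208 RPM in that order of libraries. A count of 0 would have allowed up to 3 reads, or 8.02 to 12.3 RPM, so all levels were far above the limit of detection. No confidence interval in the text covers more than counting error, since copies made in PCR could not be separated from molecules.

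When loci of a shared sequence were collapsed to their highest count, the 10-locus sequence was at position 2 of 256 sequences of 24 nt in the control library of *C. grandis* and at position 1 of 255 in the B-toxic library. It held position 15 of 248 in control *C. sinensis* and position 13 of 248 after B-toxic treatment. Positions and shares refer to the mature sequences of the listed loci, not to all small RNA reads of a library. In control *C. grandis* it made up 13.7% (exact binomial 95% interval 13.2 to 14.2%) of the collapsed 24 nt mature reads. That share was 17.5% (16.9 to 18.2%) in B-toxic *C. grandis*. The shares in *C. sinensis* were 0.537% (0.438 to 0.651%) and 0.565% (0.466 to 0.678%). Among sequences of every length, the same count placed it at position 15 of 489 and 13 of 482 in *C. grandis*, and at 68 of 482 and 55 of 458 in *C. sinensis*.

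The ratio of *C. grandis* to *C. sinensis*, on which the sequence was chosen, was 22.0-fold in control leaves at scaffold_10_1542597 (log2 ratio 4.46, 95% counting interval 4.17 to 4.76). In B-toxic leaves it was 15.4-fold (3.95, 3.68 to 4.23). Over the 10 loci the ratio ranged from 22.0- to 25.5-fold (control) and from 15.4- to 20.4-fold (B-toxic). The scaling of the libraries moved these values, to a log2 ratio of 3.84 in control leaves with DESeq2's size factors and to 3.63 in B-toxic leaves with edgeR's TMM (trimmed mean of M values).

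For comparison, 164 distinct sequences had at least 100 reads over the 4 libraries, 69 of them of 24 nt. Their median log2 ratio of *C. grandis* to *C. sinensis* was 0.47 in control and 0.25 in B-toxic leaves, or 0.81 and 0.25 for those of 24 nt. In both treatments, 32 of them had an at least 2-fold higher RPM in *C. grandis* (16 of 24 nt), the 10-locus sequence included, and 13 (5 of 24 nt) were at least 2-fold higher in *C. sinensis*. A higher ratio than that of the 10-locus sequence in both treatments was found for 4 sequences, which are named here after their values were seen. These are scaffold_8_1287840 (873, 1089, 8 and 13 reads with *C. grandis* before *C. sinensis* and control before B-toxic), scaffold_2_195596 (1132, 785, 22 and 22), scaffold_3_442766 (75, 64, 2 and 1) and scaffold_2_310050 (83, 108, 0 and 0). The last is of 24 nt, and its ratio is a lower bound against 3 reads. None of the 4 had as many reads as the 10-locus sequence.

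**Figure D2:**
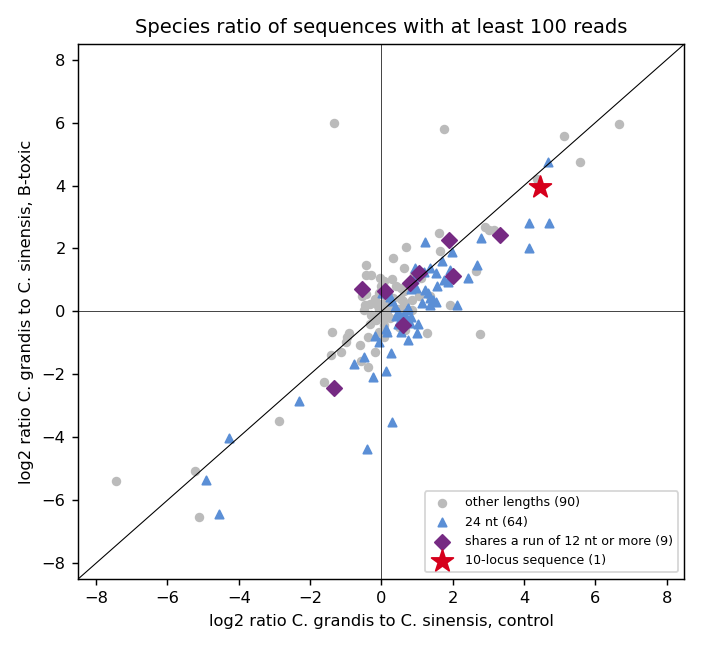
Log2 ratio of *C. grandis* to *C. sinensis* in control (horizontal axis) and B-toxic leaves (vertical axis) for sequences with at least 100 reads, collapsed over loci to the highest count per library, with the diagonal of equal ratios. Triangles are 24 nt sequences, diamonds those related to the 10-locus sequence, and the star is the 10-locus sequence, which was chosen for its place at the upper right and lies at 4.46 and 3.95.

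The B-toxic library of *C. grandis* held a slightly higher RPM of the sequence than the control library. The log2 ratio was 0.16 (0.08 to 0.24), or 1.12-fold, at the 4 top loci (FDR = 0.00107, Fisher's exact test of the reads of both libraries). At scaffold_5_893299, scaffold_9_1423930 and scaffold_6_995174 it was 0.17 (FDR = 0.000673, same exact test). The loci with fewer reads had higher ratios, of 0.27 (0.18 to 0.35) at scaffold_3_349748 (FDR = 2.24e-08, same exact test) and of 0.29 at scaffold_3_488537 (FDR = 7.21e-09) and scaffold_2_252949 (FDR = 6.56e-09). All 10 loci had an FDR below 0.01 and a higher level in the B-toxic library, beside 9.09% of the 638 loci tested. They list a single sequence, so they are not 10 separate results to set against that share. None reached the ratio of 2 that a call also required, beside 7.05% of loci called, and no interval of a member extended to 2-fold. Counted once, with totals recomputed, the sequence had a log2 ratio of 0.12 and an FDR of 0.0246 by the same exact test.

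In *C. sinensis* the sequence was also higher in the B-toxic library, from far fewer reads. At the 4 top loci the log2 ratio was 0.67 (0.27 to 1.07), or 1.59-fold (FDR = 0.00805, Fisher's exact test). The next loci had 0.66 at scaffold_5_893299 (FDR = 0.0103), 0.62 at scaffold_9_1423930 (FDR = 0.0216) and 0.66 at scaffold_6_995174 (FDR = 0.0249). At scaffold_3_349748 the log2 ratio was 0.69 (0.25 to 1.12, FDR = 0.0152). The 2 loci followed by A had 0.47 (-0.01 to 0.95, FDR = 0.223) at scaffold_3_488537 and 0.51 (0.02 to 1.00, FDR = 0.184) at scaffold_2_252949. Thus only the 4 top loci, whose equal counts are a single measurement, had an FDR below 0.01 with a higher level. The share over the 640 loci tested was 4.53%. None of the 10 loci was called, beside 1.88%, although 9 of the 10 intervals extended to 2-fold. The FDR below 0.01 at 4 loci rested on the scaling, since with clean reads, TMM or DESeq2's size factors, 0 of 10 loci had an FDR below 0.01, and the FDR at scaffold_10_1542597 was 0.0197, 0.0710 and 0.0853, by the same exact test.

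The difference of the log2 B ratio between the species, *C. sinensis* minus *C. grandis*, was 0.51 (0.10 to 0.92) at the 4 top loci (p = 0.0116 and FDR = 0.0668, exact conditional test of equal ratios). Over the 10 loci it ranged from 0.18 to 0.51. None of the 10 had an FDR below 0.01 in this test, beside 13.3% of the 579 loci that had reads in both species. With the sequence counted once, the FDR of the difference was 0.0397 by the same exact test, so the limit of 0.01 was missed there as well.

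Across both species, edgeR's quasi-likelihood test gave a log2 B ratio of 0.25 (SE 0.38) at scaffold_10_1542597 (FDR = 0.916), and 0.23 to 0.31 over the 10 loci. All 10 passed the filter on low counts, and none had an FDR below 0.05, beside 0% of the 349 loci tested, of which 8 had an unadjusted p below 0.05. DESeq2 gave 0.40 (SE 0.41, adjusted p = 0.997), with 0 of 699 loci below 0.05 after adjustment and 5 before. When edgeR's exact test was given an assumed coefficient of variation of 0.2 between libraries, the FDR of the sequence was 1 in both species. With 1 library of mixed RNA per condition, the spread between plants cannot be told apart from a response to B.

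**Figure D3:**
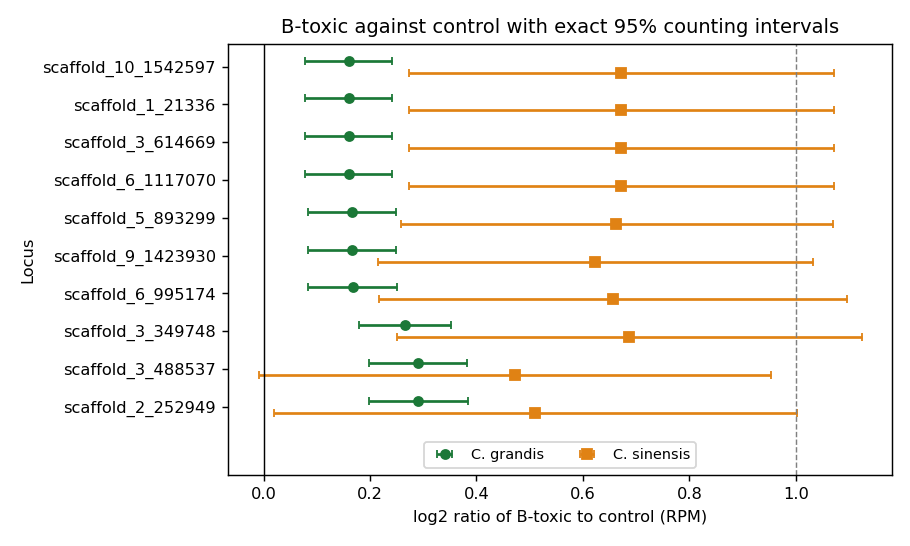
Log2 ratio of B-toxic to control RPM (horizontal axis) at the 10 loci (vertical axis) in *C. grandis* (circles) and *C. sinensis* (squares), with exact 95% counting intervals as bars and a dashed line at 2-fold. The *C. grandis* values lie between 0.16 and 0.29 with short bars, and those of *C. sinensis* between 0.47 and 0.69 with bars that extend to 2-fold at 9 loci.

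Precursors of the sequence were predicted to fold into hairpins with nearly every mature base paired. Those with the lowest and the highest free energy and that of the locus with the fewest reads are shown because their 5′ part is close to the complement of the mature sequence, which is in capitals.
scaffold_6_1117070: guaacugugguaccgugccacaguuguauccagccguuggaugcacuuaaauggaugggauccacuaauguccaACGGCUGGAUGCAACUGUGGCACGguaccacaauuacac
scaffold_10_1542597: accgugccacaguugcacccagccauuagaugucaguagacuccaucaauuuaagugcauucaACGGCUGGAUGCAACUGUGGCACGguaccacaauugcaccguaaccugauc
scaffold_2_252949: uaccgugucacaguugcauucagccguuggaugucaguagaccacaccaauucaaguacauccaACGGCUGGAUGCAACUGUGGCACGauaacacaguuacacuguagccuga
The exact reverse complement of the mature sequence, shown for reading these hairpins, is given next.
reverse complement: cgugccacaguugcauccagccgu
The closest stretch of each precursor differed from this complement by 1 to 5 edits (substitutions, insertions or deletions). At 7 of the 10 loci it differed by at most 2, against 4.94% of the other 344 loci of 24 nt, and the medians were 2 and 9 edits.

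In structures predicted at 37 °C, 22 to 24 of the 24 bases of the mature sequence were paired (median 23), and all 24 were paired at scaffold_2_252949, scaffold_3_349748, scaffold_6_1117070 and scaffold_6_995174. The median of the other 24 nt loci was 18 paired bases, and 17 of 344 (4.94%) had all 24 paired. The minimum free energy ran from -82.9 kcal/mol at scaffold_6_1117070 to -50.4 kcal/mol at scaffold_10_1542597. Per nt it was -0.73 to -0.44 kcal/mol with a median of -0.54, against a median of -0.25 for the other 24 nt loci, of which 6.10% were at or below the median of the members. The mature sequence was on the 3′ arm at 10 of 10 loci, as at 49.7% of the other 24 nt loci. Precursors were 108 to 114 nt long, within the range of the other 24 nt loci (108 to 115 nt), and no 2 were alike. Their GC content was 43.5 to 57.9%, with a median of 50.2% against 37.2% at the other 24 nt loci, and its part in the lower free energy was not tested. Identity over the 45 pairs of precursors was 72.4 to 91.0% (median 81.7%). Because the mature sequence and its near complement recur in all of them, these 10 structures are not independent of each other. The locus with the most stable hairpin and that with the least stable one had the same counts in every library. Both list the same 24 nt, so these counts cannot relate hairpin stability to level, which was not tested.

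**Figure D4:**
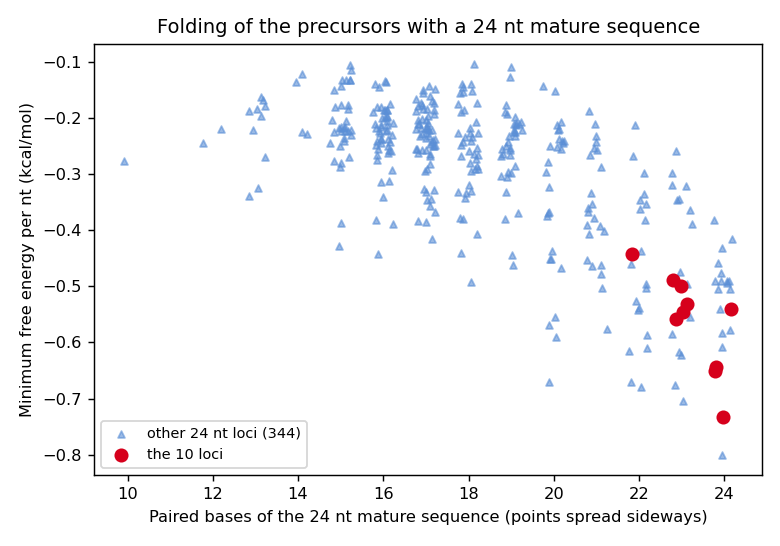
Minimum free energy per nt of the precursor (vertical axis, kcal/mol) against the number of paired bases in the mature sequence (horizontal axis, points spread sideways) for the 10 loci (circles) and the other 344 loci with a 24 nt mature sequence (triangles). The 10 loci lie at 22 to 24 paired bases and at -0.73 to -0.44 kcal/mol per nt.

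In the total column, reads assigned elsewhere on these precursors were a small share. Subtracting the mature reads from the total of each locus left 3 to 109 reads over the 4 libraries, 261 in all. Their median was 0.137% of the total of a precursor, against 4.17% over all loci and 3.74% over the 24 nt loci. In reads, the median was 6.5 at the members and 1 over all loci as well as over the 24 nt loci, and the share of the members is set against mature reads that are listed at each of the 10 loci. Most were at scaffold_6_1117070 (109 reads), scaffold_6_995174 (54) and scaffold_3_614669 (52), with 19 at scaffold_2_252949, 7 at scaffold_10_1542597, 6 at scaffold_3_349748 and 5 at scaffold_3_488537. The other 3 loci, scaffold_1_21336, scaffold_5_893299 and scaffold_9_1423930, had 3 each. The total column does not split these reads by library or by position, so whether any came from the opposite strand of the hairpin stem was not tested. Nor does it hold every read that matches a precursor. The sequence scaffold_2_309694, described below, had 1234 reads and stands in 6 of these precursors. The share thus depends on how reads were assigned, which was not tested.

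A further 10 distinct mature sequences, at 22 loci, shared a run of at least 12 identical nt with the 10-locus sequence, 9 with the sequence itself and 1 with its reverse complement. They were of 24 nt (5) or 21 nt (5), and 4 carried homology labels of known miRNAs. None of their precursors held the 10-locus sequence. Their precursors, each at the locus with the most reads, were also predicted to form stable hairpins. The free energy per nt was -0.68 to -0.35 kcal/mol with a median of -0.56, the mature sequence was on the 3′ arm at 9 of 10, and 4 of 10 held a stretch within 2 edits of its complement, such as scaffold_5_837744 with 0 edits. The least stable was that of scaffold_3_555940, at -0.35 kcal/mol per nt and 6 edits. The 6 to which the results refer are shown with the shared run in capitals, to be read against the mature sequence at the start.
scaffold_2_309694: UGGAUGCAACUGUGGCACGguacc
scaffold_3_555940: aCUGGAUGCAACUGUGGCACG
scaffold_5_837744: uaGAUGCAACUGUGGCACGgu
scaffold_6_1047339: CUGGAUGCAACUGUGGuacgg
scaffold_9_1471032: uggauguAACUGUGGCACGgu
scaffold_1_3807: uacCGUGCCACAGUUGuauccagc
In the substitutions that follow, the base of the 10-locus sequence is first, then its position from the 5′ end, then the base of the related sequence.

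The closest of them by level over the 4 libraries was scaffold_2_309694, a 24 nt sequence at 5 loci that begins at position 6 of the 10-locus sequence, covers the rest of it without a substitution and runs on for 5 bases, GUACC. In *C. grandis* it had 645 reads (control) and 464 (B-toxic), and in *C. sinensis* 60 and 65. Its ratio of *C. grandis* to *C. sinensis* was 9.97-fold in control (log2 ratio 3.32, 2.93 to 3.72) and 5.34-fold in B-toxic leaves (2.42, 2.04 to 2.81). These ratios are set beside those of the 10-locus sequence as a description, since that sequence was chosen for its own. The same 24 nt stand in 6 of the 10 member precursors, where the total column held no more than 3 to 109 reads beyond the mature sequence, against 1234 reads of it at its own locus. Its level was lower in the B-toxic *C. grandis* library, by a log2 ratio of -0.27 (-0.45 to -0.10, FDR = 0.00981, Fisher's exact test), below the ratio of 2 needed for a call, while the 10-locus sequence was higher there. The decrease of scaffold_2_309694 rested on the scaling. Clean reads shift every *C. grandis* B ratio up by 0.25, which leaves almost none of the decrease, and DESeq2's size factors shift it up by 0.15. The difference between the sequences was not tested.

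A 21 nt sequence, scaffold_3_555940, covered positions 4 to 24 of the 10-locus sequence with the substitution G4A. It had 120, 103, 30 and 16 reads in the order of libraries used above, and was 3.71-fold higher in *C. grandis* in control and 4.81-fold in B-toxic leaves. Its homology label in the table was osa-miR319a-3p, which was not checked here. With G7A and the same length, scaffold_5_837744 had 272, 165, 63 and 57 reads, and log2 species ratios of 2.00 and 1.11. With C21U, scaffold_6_1047339 had 236, 418, 105 and 133 reads, and log2 species ratios of 1.06 and 1.23. These, scaffold_2_309694 and scaffold_5_790919 (13, 20, 6 and 6 reads) were the 5 related sequences at least 2-fold higher in *C. grandis* in both treatments, although the intervals of the last reached below 0.

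The opposite order was found for scaffold_9_1471032, of 21 nt and labelled sbi-miR6232a-3p, which differed by C12U over the 19 bases it shared with the 10-locus sequence. Its 3 loci had unequal counts, and at that with the most reads they numbered 264 (control) and 110 (B-toxic) in *C. grandis*, against 533 and 332 in *C. sinensis*. Collapsed to the highest count over its loci, it had 614 and 442 reads in *C. sinensis* and the same counts in *C. grandis*. It was 2.18-fold higher in *C. sinensis* in control leaves (log2 ratio of *C. grandis* to *C. sinensis* -1.12, -1.34 to -0.91) and 4.04-fold in B-toxic leaves (-2.01, -2.34 to -1.70). Of its 3 precursors, 1 held the exact reverse complement of the 10-locus sequence. No related sequence had a higher species ratio than the 10-locus sequence in both treatments.

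Of the 10 related sequences, 3 were called for B-toxicity in *C. grandis*, beside the 7.05% given above, and 0 in *C. sinensis*, beside 1.88%. In *C. grandis*, scaffold_9_1471032 fell by 1.06 on the log2 scale (FDR = 2.32e-10, Fisher's exact test), and scaffold_6_1047339 rose by 1.02 (FDR = 1.06e-17, same exact test). The call of scaffold_9_1471032 rested on the scaling. Clean reads or DESeq2's size factors shift every *C. grandis* B ratio up by 0.25 or 0.15, which leaves this fall short of 2-fold. In *C. sinensis*, scaffold_6_1047339 rose as well, by 0.85 (0.47 to 1.23, FDR = 0.000102, same exact test), below the ratio of 2. The third sequence called in *C. grandis* was scaffold_1_3807, a 24 nt sequence related to the complementary strand, with 51, 116, 69 and 53 reads. It rose by 1.39 (FDR = 4.25e-08, same exact test), and its 24 nt stand in the 5′ part of the precursor of scaffold_6_1117070, the member with the most reads beyond the mature sequence. The remaining related sequences were scaffold_5_854927 (152, 103, 92 and 105 reads), scaffold_7_1160900 (131, 121, 72 and 48) and scaffold_9_1467612 (52, 71, 45 and 34), none of which was called in either species.

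**Figure D5:**
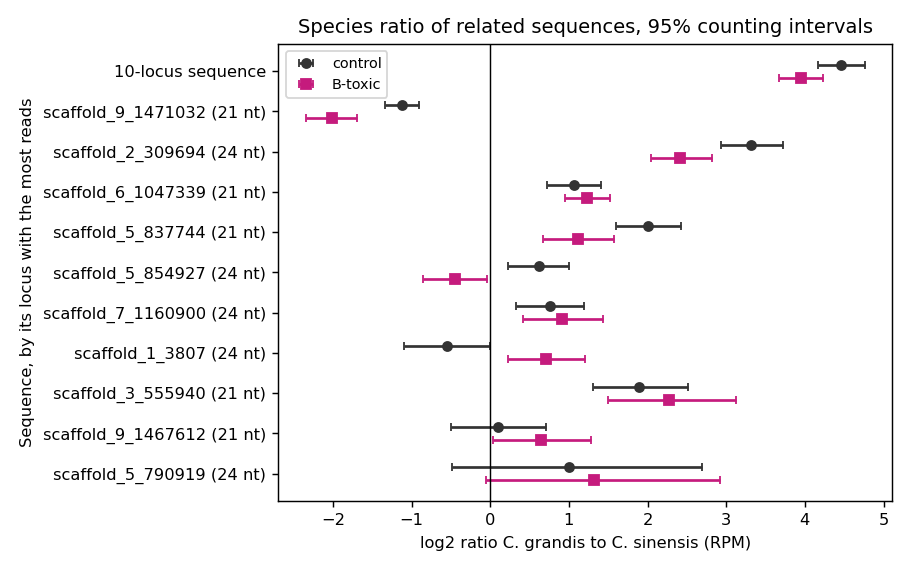
Log2 ratio of *C. grandis* to *C. sinensis* (horizontal axis, from RPM) of the 10-locus sequence and the 10 related sequences, each at its locus with the most reads (vertical axis), in control (circles) and B-toxic leaves (squares), with exact 95% counting intervals as bars. The 10-locus sequence lies at 4.46 and 3.95, scaffold_2_309694 at 3.32 and 2.42, and scaffold_9_1471032 on the other side of 0 at -1.12 and -2.01.

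By level over the 4 libraries, the sequences nearest to the 10-locus sequence were looked for only among those with at least 100 reads. Those sharing a run of at least 12 nt with it or its reverse complement were left out. Nearness was the Euclidean distance of log2(RPM + 1), centred on the mean of each sequence. The nearest was scaffold_23_1546101, of 19 nt, with 67, 75, 3 and 3 reads and a distance of 0.205. After it came scaffold_2_195596 at 1.01, scaffold_3_442766 at 1.17, scaffold_7_1231973 (134, 56, 7 and 6 reads) at 1.19 and scaffold_5_846661 (68, 72, 7 and 9 reads) at 1.38. The last of these shares a run of 10 nt with the 10-locus sequence. The related scaffold_2_309694, left out by the rule, was at 1.37 and so nearer than scaffold_5_846661. Apart from scaffold_2_195596 (22 and 22 reads) and scaffold_2_309694 (60 and 65), counts of 1 to 9 reads in *C. sinensis* make these distances imprecise. The 10-locus sequence itself was chosen for its pattern over the same 4 libraries.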

How the data were processed

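Small RNA of mature leaves was sequenced as 4 libraries, grouped by their labels. The deposited table holds read counts without normalization. The authors trimmed and filtered reads, took out other RNA classes, searched miRBase and predicted hairpins with MTide on the *C. clementina* genome. Mature reads are given per locus, beside a total of the reads assigned to each precursor. Which MTide version was run, and how reads with several matches were treated, is not given in the sources used. Loci keep the labels of the table, since no genome was used here.

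Counts were scaled to the mature reads of each library, and a count of 1 read equalled 2.67 to 4.11 RPM. Within each species, Fisher's exact test (two-sided, scipy 1.17.1) was run on every locus with Benjamini-Hochberg adjustment, and a call needed an at least 2-fold ratio besides an FDR below 0.01. Ratios have exact (Clopper-Pearson) 95% intervals. The common B response was fitted with edgeR 4.0.16 (TMM, species as covariate, 1 residual degree of freedom) and DESeq2 1.42.0 in R 4.3.3. Precursors were folded with RNAfold 2.7.2 and aligned with Biopython 1.88. The tests were checked on simulated data. Named were the 10 loci, every distinct sequence sharing a run of at least 12 nt with the sequence or its complement, and the 5 nearest in level among sequences of at least 100 reads without such a run. The members, lists and tests were chosen with earlier results of these data known. Alternatives were other scalings (clean reads, TMM, DESeq2's size factors), each sequence counted once, another locus, filter, ratio limit or test, an assumed spread between libraries, another folding temperature, and a run of at least 10 nt.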

Additional observations from a re-analysis of the deposited data

Results flagged for a closer look

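Reads beyond the mature sequence, which entered no comparison of libraries, stood above the limit of 3 reads that a count of 0 allows at 7 of the 10 loci. They numbered 109 at scaffold_6_1117070, 54 at scaffold_6_995174, 52 at scaffold_3_614669, 19 at scaffold_2_252949, 7 at scaffold_10_1542597, 6 at scaffold_3_349748 and 5 at scaffold_3_488537. These are sums over the 4 libraries. Where on the precursors they lay was not tested.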

How the results depend on the processing

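No result changed direction under any alternative run. Without the limit on the ratio, 10 loci of the sequence passed an FDR below 0.01 in *C. grandis* and 4 in *C. sinensis*, against 0 and 0 called with it, and 0 under each of the other alternatives. The log2 ratio of B-toxic to control at scaffold_10_1542597 was 0.12 to 0.41 in *C. grandis* and 0.51 to 0.67 in *C. sinensis*. Its difference between the species was 0.20 to 0.55 (FDR 0.0397 to 0.803, exact conditional test), and the common B ratio was 0.24 to 0.41 (adjusted p 0.878 to 0.997, edgeR or DESeq2).

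The log2 ratio of *C. grandis* to *C. sinensis* in control leaves became 3.998 with TMM and 3.84 with DESeq2's size factors. In B-toxic leaves it became 4.34 with clean reads, 3.63 with TMM, 3.64 with DESeq2's size factors and 4.35 at the locus with the fewest reads. Another scaling shifts every locus alike, by -0.46 and -0.62 in control leaves with TMM and DESeq2, by 0.39, -0.32 and -0.30 in B-toxic leaves with clean reads, TMM and DESeq2, by 0.25 and 0.15 for the B ratio in *C. grandis* with clean reads and DESeq2, and by -0.15 and -0.16 for that in *C. sinensis* with TMM and DESeq2. Folded at 25 °C, the median free energy of the members was -0.65 kcal/mol per nt.

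Replicates could not be paired between groups because each group had 1 library. Species entered the edgeR fit as a covariate, so B-toxic was set against control within species there. Leaving out a library left no residual degree of freedom. Depth limits the sequence in *C. sinensis*, where 72 to 114 reads per library gave intervals of the B ratio that extended to 2-fold at 9 loci.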

Other observations

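A shorter shared run of at least 10 nt raised the number of related sequences from 10 to 13. The added ones, scaffold_5_846661 (68, 72, 7 and 9 reads in control and B-toxic *C. grandis*, control and B-toxic *C. sinensis*), scaffold_3_466333 (37, 20, 7 and 12) and scaffold_5_770543 (3, 6, 39 and 35), were not called for B-toxicity in either species. The first is also the fifth nearest by level among sequences with at least 100 reads and no shared run of 12 nt. The last had more reads in *C. sinensis*, as scaffold_9_1471032 did.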
